A study of Homo sapiens with 4 samples.

Results

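Chromosomes 17, 19 and 22 were followed through 4 H3K27ac HiChIP libraries of IMR90 cells, a line of human lung fibroblasts. The members are all interactions whose first anchor lies on one of these 3 chromosomes, 113616 of the 1330388 interactions listed in the 4 libraries together. They numbered 22495 in senescent shMETTL3, 29309 in senescent shMETTL14, 21892 in senescent shcontrol and 39920 in control cells. The other 19 autosomes are set beside them.

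HiChIP ligates DNA that is in contact in fixed nuclei and enriches it by immunoprecipitation, in this case of H3K27ac, the acetylated histone H3 found at active enhancers and promoters. Each interaction joins a pair of anchors on the same chromosome and carries a count of the paired-end tags (PETs) that link them. In the senescent groups the cells expressed an inducible fusion of the estrogen receptor with H-RASG12V (ER:RAS) and carried a hairpin against METTL3, a hairpin against METTL14 or a control hairpin. The control group is labelled WT and control, with no hairpin named (the series text speaks of a vector), and the labels do not say whether these cells carried the fusion, so the presence of a hairpin and senescence cannot be told apart in that comparison. One protocol text writes METTL4 for the hairpin that the genotype labels call METTL14, and METTL14 is used here.

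Each group is 1 library, so no difference below has a replicate check, no test of the conditions was possible, and the 95% intervals cover counting error only. The libraries held 623930 PETs in shMETTL3, 936492 in shMETTL14, 552029 in senescent shcontrol and 998378 in control. The 3 senescent libraries share an anchor set and the control library has another, so windows and anchors of senescent shcontrol and control were compared over PETs with both ends in regions that hold anchors of both sets, 79.7% of the PETs of senescent shcontrol and 64.1% of those of control. How far METTL3 and METTL14 were depleted was not measured in these files.

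Gene-rich chromosomes such as 17, 19 and 22 tend to lie toward the centre of the nucleus in human fibroblasts, and their promoters are close together along the DNA. METTL3 is the catalytic subunit and METTL14 the RNA-binding partner of the complex that writes N6-methyladenosine on RNA. Senescence is a lasting arrest of the cell cycle in which fibroblasts switch on a secretory programme of cytokines, proteases and their inhibitors.

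The label gene-dense was checked against the RefSeq gene table of GRCh38.p14. Between its first and last gene, chromosome 19 held 24.8 protein-coding genes per Mb and chromosome 17 held 14.1, the highest values of the 22 autosomes. Chromosome 22 held 8.88 and ranked 5 of 22, since chromosomes 11 and 16 were denser at 9.68 and 9.48. The 3 chromosomes together had 15.96 genes per Mb, against 5.997 for the other autosomes.

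Positions of interactions are on hg19. No hg19 annotation was used here, so the genes named below were placed in 1-Mb windows from general knowledge of hg19 and a value belongs to the whole window, not to the gene. All 41 genes of the list of fibroblast and senescence genes, in 25 windows, are on the named chromosome in the RefSeq table.

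The sequences of 3 loci named in the results are shown first. JUNB, a subunit of the AP-1 transcription factor, lies in a window that was low in both knockdowns. TIMP3, an inhibitor of metalloproteinases, lies in the window of these chromosomes that was highest in shMETTL14 over senescent shcontrol. The mature miR-21-5p, a microRNA abundant in fibroblasts, is made from a gene beside the strongest interactions of these chromosomes in the control library. The promoters are the 250 bases before the start site in the RefSeq table, JUNB on the plus strand of GRCh38.p14 at chr19:12791236-12791485 and TIMP3 on the plus strand at chr22:32801455-32801704. Capitals mark GATC, the palindromic site of MboI, the enzyme that cut the chromatin here, and in miR-21-5p (GRCh38.p14, plus strand, chr17:59841273-59841294) they mark the seed, bases 2 to 8.
JUNB: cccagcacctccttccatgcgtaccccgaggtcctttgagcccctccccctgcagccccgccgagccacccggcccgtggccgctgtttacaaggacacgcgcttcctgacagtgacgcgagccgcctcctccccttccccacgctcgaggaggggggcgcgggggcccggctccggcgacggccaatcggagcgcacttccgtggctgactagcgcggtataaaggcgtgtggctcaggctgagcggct
TIMP3: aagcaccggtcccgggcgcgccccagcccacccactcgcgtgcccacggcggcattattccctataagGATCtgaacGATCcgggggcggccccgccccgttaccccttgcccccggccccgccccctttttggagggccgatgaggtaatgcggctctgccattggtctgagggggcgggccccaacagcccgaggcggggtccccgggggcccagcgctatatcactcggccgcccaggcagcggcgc
hsa-miR-21-5p: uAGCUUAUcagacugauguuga
The TIMP3 promoter holds 2 GATC sites and that of JUNB holds 0, while 33.9% of 15100 autosomal promoters of the same length in the table hold at least 1. JUNB and TIMP3 are 70.8% and 72.4% G or C with 27 and 26 CpG dinucleotides. No interaction was assigned to a cut site, so these letters are a description only.

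The first question was how large a part of all contacts the gene-dense chromosomes carried. They took 8.08% of PETs in shMETTL3 (95% interval 8.01 to 8.14), 7.67% in shMETTL14 (7.61 to 7.72), 8.50% in senescent shcontrol (8.43 to 8.58) and 9.34% in control (9.28 to 9.40). The share was lowest in the METTL14 knockdown and highest in control cells, and the 4 counting intervals do not overlap. Chromosome 17 held 4.29%, 4.04%, 4.54% and 4.93% of PETs in the same order of libraries. Chromosome 19 held 2.44%, 2.42%, 2.62% and 2.76%. Chromosome 22 held 1.34%, 1.21%, 1.34% and 1.65%.

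Against senescent shcontrol, the share in shMETTL14 had a ratio of 0.902 (0.891 to 0.912). All 3 chromosomes were low there, with 0.890 for chromosome 17, 0.904 for chromosome 22 and 0.920 for chromosome 19. Over all anchors these were the 3 lowest ratios of the 22 autosomes, the other 19 running from 0.9298 on chromosome 16 to 1.07 on chromosome 18. Over the anchors shared with the control set, chromosome 17 had 0.904, chromosome 19 had 0.922 and chromosome 22 had 0.9297, and chromosome 16, at 0.905, then lay below chromosomes 19 and 22. In shMETTL3 over senescent shcontrol the ratio was 0.9499 (0.938 to 0.962). Chromosome 19 had 0.931 and chromosome 17 had 0.945, while chromosome 22 had 1.00 (0.971 to 1.03), so it did not share the lower value. The other autosomes ran from 0.909 on chromosome 4 to 1.08 on chromosome 21, a range that holds all 3. Both comparisons use the senescent shcontrol library, and they are therefore not independent of each other.

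Set directly against shMETTL3, the share in shMETTL14 had a ratio of 0.949 (0.938 to 0.960). Here chromosome 22 was low at 0.902 and chromosome 17 at 0.942, while the interval of chromosome 19, 0.968 to 1.01, includes 1. The other autosomes ran from 0.901 on chromosome 21 to 1.099 on chromosome 4, so the 3 chromosomes lie inside their range here too.

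Set against control, the share in senescent shcontrol had a ratio of 0.910 (0.900 to 0.920). Chromosome 22 stood lowest of all 22 autosomes at 0.809 (0.787 to 0.832), followed among the 3 by chromosome 17 at 0.922 and chromosome 19 at 0.9502. The other autosomes ran from 0.846 to 1.19 in this comparison, so the values of chromosomes 17 and 19 lie inside their range. Over shared anchors alone, the ratio of the 3 chromosomes was 0.923. Chromosome 22 then had 0.796 and chromosome 17 had 0.914, while chromosome 19 turned to 1.005 (0.982 to 1.03).

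**Figure D1:**
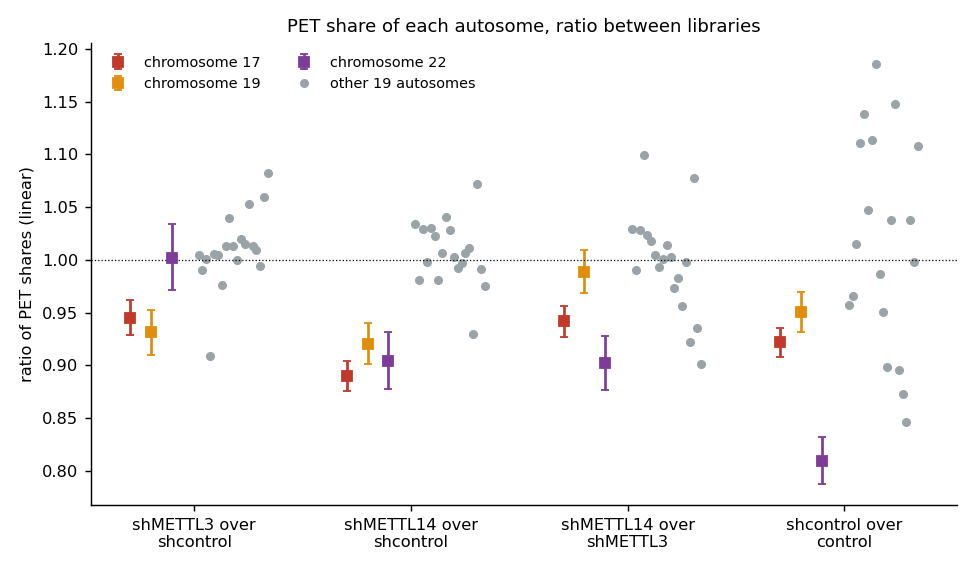
Ratio of PET shares (y axis, linear) between libraries for each autosome, in 4 comparisons (x axis). Coloured squares are chromosomes 17, 19 and 22 with 95% counting intervals, and grey points are the other 19 autosomes. In shMETTL14 over senescent shcontrol the squares lie at 0.890 to 0.920, below every grey point (0.9298 to 1.07) over all anchors as plotted, an order that chromosome 16 breaks over shared anchors.

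Anchors were packed more densely on these chromosomes than on any other autosome, in both anchor sets. Density was taken between the first and the last anchor of each chromosome. The senescent set had 27.3 anchors per Mb on the 3 chromosomes together and 18.95 on the other autosomes. The control set had 33.8 and 22.8. Chromosomes 17, 22 and 19 ranked 1, 2 and 3 of 22 in both sets, with 28.4, 26.5 and 26.4 anchors per Mb in the senescent set and 35.1, 34.1 and 31.9 in the control set. The densest other autosome had 22.7 and 28.8. Anchors covered 10.8% of the 3 chromosomes in the senescent set and 16.4% in the control set, against 8.02% and 10.9% of the other autosomes. Chromosome 22 thus ranked higher for anchors than for genes.

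Anchors of the senescent set were slightly narrower on the gene-dense chromosomes. Their median width was 3174 bp, against 3358 bp on the other autosomes, and chromosomes 19 and 22 had the lowest medians of the 22 (3091 and 3163 bp). Chromosome 17 had 3244 bp, above chromosome 16 (3199 bp) and equal to chromosome 20 (3244 bp). Anchors of 15 kb or wider made up 0.774% of anchors on the 3 chromosomes (0.545 to 1.06) and 1.296% elsewhere (1.198 to 1.40). They were 0.652% on chromosome 17, 1.03% on 19 and 0.647% on 22, while chromosome 14 had 0.766% and chromosome 18 had 0.895%. In the control set the medians were close, 3624.5 bp and 3653 bp, and wide anchors were 2.70% (2.30 to 3.15) and 2.35% (2.23 to 2.48). The median gap between neighbouring anchors was 14.2 kb on the 3 chromosomes and 16.3 kb elsewhere in the senescent set, and 9.58 kb and 11.1 kb in the control set. In the senescent set it was 13.4 kb on chromosome 17, 15.2 kb on 22 and 15.4 kb on 19. These ranked 1, 7 and 8 of 22 from the lowest, so only chromosome 17 lay below every other autosome. In the control set the gaps were 9.18, 9.79 and 10.1 kb, ranking 1, 3 and 6.

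**Figure D2:**
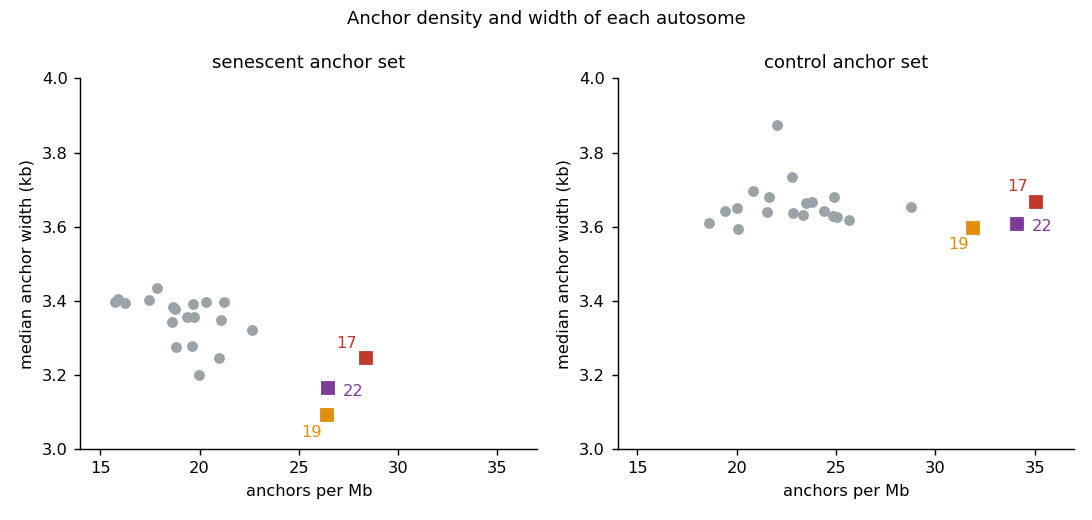
Anchors per Mb (x axis) and median anchor width in kb (y axis) of each autosome, for the senescent anchor set (left) and the control set (right). Chromosomes 17, 19 and 22 (coloured squares) lie at 26.4 to 28.4 anchors per Mb in the senescent set and at 31.9 to 35.1 in the control set, right of all other autosomes (grey).

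On average over the 3 chromosomes, an anchor carried fewer PETs than anchors elsewhere in the senescent libraries. PET ends per anchor per 1000000 PETs averaged 33.8 on the 3 chromosomes and 36.9 on the other autosomes in shMETTL3, and 32.1 and 37.1 in shMETTL14. Senescent shcontrol had 35.6 and 36.7. Control, with its own anchor set, had 31.8 and 30.2, the opposite order. Chromosome 17 anchors carried the most of the 3 (37.3, 35.1, 39.5 and 34.7 in shMETTL3, shMETTL14, senescent shcontrol and control). They were above the average of the other autosomes in shMETTL3, senescent shcontrol and control. Single other autosomes reached 46.4 in shMETTL3, 43.3 in senescent shcontrol and 33.8 in control, so chromosome 17 was above each of them in control alone. Chromosome 22 anchors carried the fewest (28.9, 26.1, 28.8 and 28.4). Per covered kb of anchor, PET ends per 1000000 PETs were 8.56 on the 3 chromosomes and 8.72 elsewhere in shMETTL3, and 8.13 and 8.76 in shMETTL14. Senescent shcontrol had 9.02 and 8.68, and control had 6.55 and 6.33, so the average over the 3 chromosomes was higher in these libraries. Of the 3, only chromosome 17 lay above the average of the other autosomes there, with 9.839 in senescent shcontrol and 7.057 in control. Chromosome 19 had 8.609 and 6.156 and chromosome 22 had 7.566 and 5.916, all below that average. Single other autosomes ran from 7.155 to 10.02 in senescent shcontrol and from 5.084 to 6.934 in control. Only chromosome 17 in control lay outside these ranges. Each anchor of the 3 chromosomes had on average 9.41 partners in shMETTL3, 12.3 in shMETTL14, 9.15 in senescent shcontrol and 13.6 in control, numbers that also grow with depth.

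Of the merged regions on the 3 chromosomes, 51.2% held anchors of both sets, 34.7% of the control set only and 14.1% of the senescent set only. On the other autosomes the shares were 47.5%, 34.5% and 18.01%. Chromosome 19 had the largest common part of the 3, at 55.4%.

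Contacts on the gene-dense chromosomes were shorter than elsewhere in every library. The median span of a PET, measured between anchor midpoints, was 55.1 kb in shMETTL3, 60.5 kb in shMETTL14, 66.2 kb in senescent shcontrol and 69.6 kb in control. On the other autosomes it was 71.3, 77.0, 84.4 and 88.6 kb. PETs of 100 kb or more made up 36.4%, 38.8%, 40.1% and 41.5% on the 3 chromosomes and 42.7%, 44.9%, 46.4% and 47.3% on the others. Chromosomes 17, 19 and 22 had the 3 lowest of these shares of the 22 autosomes in each senescent library. In control, chromosome 19 ranked 1, chromosome 17 ranked 2 and chromosome 22 ranked 5.

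PETs were also divided by the number of possible anchor pairs in each span class. Per possible pair, the 3 chromosomes had 0.956 times the PETs of the other autosomes at 5 to 20 kb in shMETTL3, 0.883 in shMETTL14, 0.975 in senescent shcontrol and 1.06 in control. At 1000 to 2000 kb the values were 0.498, 0.444, 0.544 and 0.643. For its number of anchors, the denser set of the 3 chromosomes forms more possible pairs in every class. At 1000 to 2000 kb in the senescent set, 4783 anchors form 141008 pairs there, and 49449 anchors form 1070997 elsewhere. Ratios of the 3 chromosomes over the others were lower per pair than as shares of PETs in every class. In shMETTL3 they were 0.956 per pair and 1.16 as shares at 5 to 20 kb. At 1000 to 2000 kb they were 0.498 and 0.741. The part of anchor density in the shorter spans was not tested. Neighbouring anchors were joined by 27.9% of PETs on the 3 chromosomes in shMETTL3, 26.9% in shMETTL14, 25.5% in senescent shcontrol and 22.8% in control, against 26.1%, 25.6%, 24.5% and 21.2% elsewhere. Chromosome 19 had 29.98%, 28.22%, 27.35% and 23.8%. Chromosome 17 had 26.76%, 26.3%, 24.88% and 22.27%, and chromosome 22 had 27.55%, 26.03%, 23.92% and 22.8%. Single other autosomes reached 27.87%, 27.62%, 26.65% and 23.74%, so only chromosome 19 lay above each of them.

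**Figure D3:**
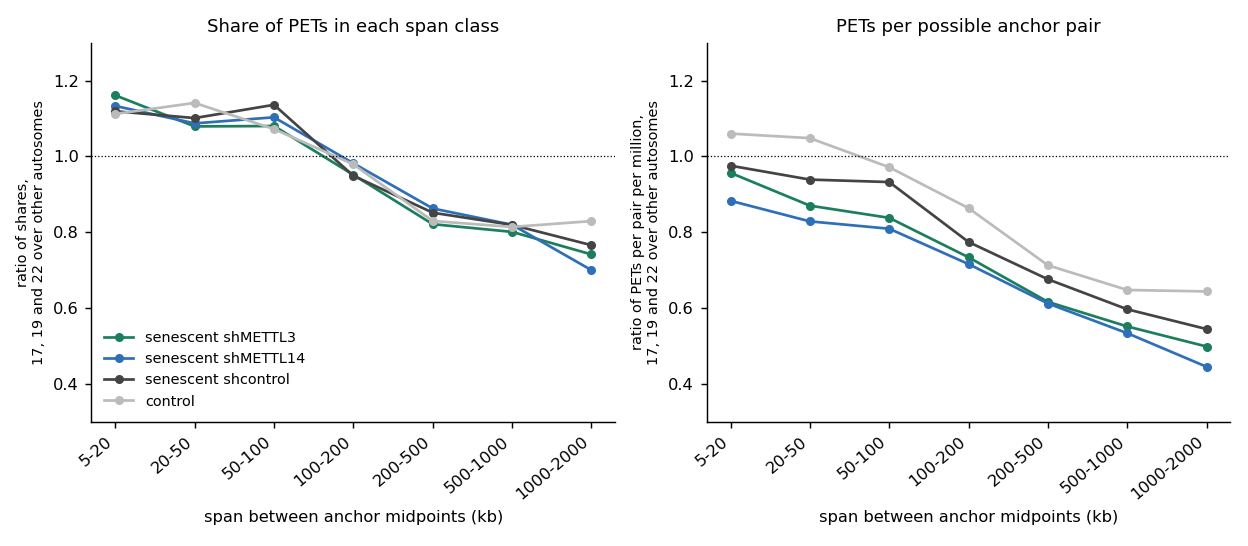
Ratio of chromosomes 17, 19 and 22 over the other autosomes (y axes) in 7 span classes (x axes, kb between anchor midpoints), for 4 libraries. The left panel plots the share of PETs and the right panel PETs per possible anchor pair per 1000000 PETs, which declines to between 0.444 and 0.643 at 1000 to 2000 kb.

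Between libraries, the METTL3 knockdown had the lowest ratio of long contacts in the 4 comparisons. PETs of 100 kb or more on the gene-dense chromosomes had a ratio of 0.907 (0.888 to 0.925) in shMETTL3 over senescent shcontrol, and 0.921 (0.915 to 0.926) on the other autosomes. The ratio went down with span, 1.12 for contacts of 5 to 20 kb, 0.894 for those of 200 to 500 kb and 0.791 (0.744 to 0.842) for those of 1000 to 2000 kb, where the other autosomes had 0.817 (0.804 to 0.831). Intervals of the 3 chromosomes and of the others overlap in the long classes, and the difference between them was not tested. At 5 to 20 kb the interval of the 3 chromosomes was 1.087 to 1.145, above the 1.075 (1.067 to 1.084) of the others.

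The same long contacts had, in shMETTL14 over senescent shcontrol, 0.968 (0.95 to 0.986) on the 3 chromosomes and 0.966 elsewhere. At 1000 to 2000 kb it was 0.963 (0.912 to 1.02) on the 3 chromosomes, while the other autosomes together had 1.05 (1.04 to 1.07). The 3 chromosomes were unlike each other in this class, with 0.890 (0.805 to 0.985) on chromosome 19, 0.926 (0.803 to 1.07) on chromosome 22 and 1.01 (0.943 to 1.09) on chromosome 17. Single other autosomes ran from 0.914 to 1.19, a range that holds chromosomes 17 and 22. In shMETTL14 over shMETTL3 the longest class had 1.22 (1.15 to 1.29) and elsewhere 1.29 (1.27 to 1.31). For senescent shcontrol over control, contacts of 5 to 20 kb had a ratio of 1.15 (1.13 to 1.18) and those of 1000 to 2000 kb had 1.05 (0.997 to 1.11), against 1.15 and 1.14 (1.12 to 1.15) on the other autosomes. The ratio at 100 kb or more in that comparison, 0.968, turned to 1.01 when spans under 20 kb were left out.

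Fewer of the contacts on these chromosomes passed as called loops, defined as interactions of at least 4 PETs with a deposited q-value of at most 0.01. With every library drawn down to 552029 PETs, there were 21.6 called loops per 1000 PETs on the 3 chromosomes in shMETTL3, 23.2 in shMETTL14, 20.8 in senescent shcontrol and 29.5 in control. The other autosomes had 25.2, 26.7, 24.7 and 30.8. Chromosome 22 had the lowest value of the 3 in each library, with 18.9, 19.6, 16.4 and 25.9. Of the other autosomes, chromosome 16 had 18.99 in shMETTL3, 18.78 in shMETTL14 and 17.45 in senescent shcontrol, below chromosomes 17 and 19. In control chromosome 17 had 30.8 and ranked 12 of 22 from the lowest, so the low rate was not common to all 3. The ratio of shMETTL14 over senescent shcontrol on the 3 chromosomes was 1.11 (1.02 to 1.22) with equal numbers of PETs and 0.846 with all PETs, so its direction differed between these. The ratio of senescent shcontrol over control was 0.706 (0.651 to 0.765) with equal numbers of PETs. The q-values stayed those of the full libraries, so these rates are not fully matched for depth.

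Called loops on the gene-dense chromosomes were also short. Their median span was 48.7 kb in shMETTL3, 69.2 kb in shMETTL14, 52.6 kb in senescent shcontrol and 85.7 kb in control. On the other autosomes it was 101, 159, 99.0 and 141 kb. Chromosome 16 also had short called loops, with 58.4, 69.75, 44.02 and 87.93 kb in the same order. In senescent shcontrol it lay below chromosomes 17 (53.17 kb) and 19 (60.46 kb), and in control below chromosome 17 (96.56 kb). In shMETTL14 it lay between chromosomes 19 (69.25 kb) and 17 (70.89 kb), and in shMETTL3 above all 3. Chromosome 22 was below it in each library. At 5 to 20 kb the rate per 1000 PETs was close to that elsewhere (26.4 and 26.8 in shMETTL3, 25.9 and 26.9 in senescent shcontrol). At 200 to 500 kb it was lower, with 19.6 and 30.5 in shMETTL3, 20.4 and 29.9 in shMETTL14, 22.1 and 32.2 in senescent shcontrol and 21.2 and 28.8 in control. Anchors with 5 or more called loops were 2.11% of anchors on the 3 chromosomes in shMETTL3, 2.66% in shMETTL14, 2.15% in senescent shcontrol and 4.27% in control, against 3.12%, 4.65%, 2.70% and 4.63% on the other autosomes.

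The genes of the HOXB cluster encode transcription factors that hold positional identity in fibroblasts. Inside this cluster lay the listed interaction of 20 kb or more with the most PETs of the 3 chromosomes in each senescent library. It joined chr17:46615468-46636599 with chr17:46644106-46677291 and had 138 PETs in shMETTL3, 163 in shMETTL14 and 162 in senescent shcontrol. In PETs per 1000000 PETs of the library (CPM) these are 221, 174 and 293, so both knockdowns were below senescent shcontrol. The control anchor set has no anchor at either end, and the count of 0 there is therefore not a measured absence of contact.

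On chromosome 22 the strongest pairs ended near LIF, a cytokine gene of the interleukin 6 family. The pair chr22:30576578-30611399 and chr22:30638918-30655315 had 234 CPM in shMETTL3, 207 in shMETTL14 and 328 in senescent shcontrol, counted over merged regions. Its first anchor, 34.8 kb wide, is not in the control set. The same anchor paired with chr22:30503416-30514901 at 115, 119 and 210 CPM. It carried 20, 23 and 21 called loops in shMETTL3, shMETTL14 and senescent shcontrol, among the 5 fullest anchors of the 3 chromosomes in each.

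In control cells the strongest pairs of these chromosomes ended at chr17:57900903-57939256, a 38.4 kb anchor. By general hg19 position it holds MIR21 and the end of VMP1, a gene of autophagy. This locus was named after its values were seen. The pair with chr17:57827901-57848875 had 195 CPM in shMETTL3, 125 in shMETTL14, 266 in senescent shcontrol and 239 in control. The pair with chr17:57857429-57875404 had 114, 110, 178 and 225. The lowest value of each pair was that of the METTL14 knockdown. The whole window at 57 to 58 Mb had 1617, 1449, 2023 and 2168 CPM, a ratio of 0.799 (0.733 to 0.871) in shMETTL3 and 0.716 (0.661 to 0.776) in shMETTL14 over senescent shcontrol.

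The window with the most PETs of the 3 chromosomes was chromosome 19 at 43 to 44 Mb in every library, with 3476 CPM in shMETTL3, 3922 in shMETTL14, 3945 in senescent shcontrol and 2497 in control. By general hg19 position it holds the PSG cluster, genes of pregnancy-specific glycoproteins, named after the values were seen. These genes are near-identical copies, so the placement of reads within the window is uncertain. Senescent shcontrol over control there had 1.58 over all anchors, 1.305 over shared anchors and 1.18 per covered kb of shared anchors. The window held 4.31%, 5.12%, 4.64% and 2.67% of the PETs of the 3 chromosomes, and 3 of the 5 fullest anchors by called loops in shMETTL3 lay in it. Another anchor with many loops, chr17:39057303-39081024 in the type I keratin cluster (also named after its values were seen), carried 21 called loops in shMETTL3, 26 in shMETTL14 and 22 in senescent shcontrol. The control set has chr17:39063262-39081143 there, with 24. Its pair with chr17:39103414-39117332 had 119, 111, 150 and 70.1 CPM in shMETTL3, shMETTL14, senescent shcontrol and control. A further pair among the 3 fullest of these chromosomes in the control library, chr17:62672302-62685561 with chr17:62689007-62711099, had 242, 244, 312 and 175.

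Windows of 1 Mb with at least 200 PETs over both libraries were then compared. In shMETTL14 over senescent shcontrol, 136 windows of the 3 chromosomes could be compared, and 104 of them had a ratio below 1. A window was called where its share was at least 25% higher, or at most 0.8 times as high, with an interval that leaves out 1. By this rule 7 were higher and 20 lower (5.15% and 14.7%), against 10.2% higher and 6.99% lower over all autosomal windows. When shares were taken within the 3 chromosomes instead of the whole library, the split was 16 higher and 4 lower, so the balance of high and low windows depends on which total is used. The median log2 ratio was -0.11, and 0.031 on the other autosomes.

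The lowest window was chromosome 17 at 79 to 80 Mb, with 680 CPM in shMETTL14 and 1080 in senescent shcontrol, a ratio of 0.630 (0.563 to 0.706). Next came the JUNB window, with 484 and 752 CPM and a ratio of 0.643 (0.562 to 0.737). Chromosome 17 at 67 to 68 Mb had 0.702, the MIR21 window 0.716 and chromosome 19 at 1 to 2 Mb 0.725. The highest was the TIMP3 window, with 224 and 132 CPM and a ratio of 1.70 (1.29 to 2.25). It rests on 210 and 73 PETs. shMETTL3 had 189 CPM there and control 257, so senescent shcontrol was the lowest of the 4 libraries. Chromosome 19 at 6 to 7 Mb followed at 1.49, chromosome 17 at 9 to 10 Mb at 1.48 and at 49 to 50 Mb at 1.46, and chromosome 22 at 27 to 28 Mb at 1.36. The 5 highest windows held between 68 and 130 PETs in senescent shcontrol, fewer than any of the 5 lowest.

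The METTL3 knockdown had 129 windows to compare with senescent shcontrol, and 88 of them had a ratio below 1. At the same rule 2 were higher and 13 lower (1.55% and 10.1%), and the background over all autosomes was 4.16% higher and 10.3% lower. Shares within the 3 chromosomes gave 5 higher and 5 lower. The median log2 ratio was -0.087, against -0.039 on the other autosomes. Chromosome 17 at 67 to 68 Mb was lowest, with 327 CPM in shMETTL3 and 511 in senescent shcontrol and a ratio of 0.640 (0.532 to 0.769). The window at 79 to 80 Mb of chromosome 17 had 0.698, the JUNB window 0.703 (0.607 to 0.815), the keratin window 0.731 and chromosome 17 at 7 to 8 Mb 0.744. The highest windows were chromosome 17 at 35 to 36 Mb with 1.31 and chromosome 22 at 27 to 28 Mb with 1.29. Short of the rule were the HMOX1 window with 1.249 (1.04 to 1.502), chromosome 17 at 2 to 3 Mb with 1.24 and at 26 to 27 Mb with 1.23.

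Between the knockdowns, shMETTL14 over shMETTL3, 139 windows could be compared, 2 higher and 7 lower (1.44% and 5.04%). Over all autosomes 13.3% were higher and 4.27% lower. Shares within the 3 chromosomes gave 9 higher and 5 lower. The lowest was chromosome 17 at 2 to 3 Mb, with 1454 CPM in shMETTL14 and 2194 in shMETTL3, a ratio of 0.663 (0.615 to 0.715). Senescent shcontrol lay between them at 1775. The other low windows were chromosome 17 at 20 to 21 Mb with 0.689, chromosome 22 at 37 to 38 Mb with 0.727, the SERPINF1 window with 0.730 and chromosome 17 at 66 to 67 Mb with 0.742. Chromosome 17 at 33 to 34 Mb was highest with 1.297 and at 15 to 16 Mb had 1.251, followed below the rule by 12 to 13 Mb with 1.23, 34 to 35 Mb with 1.22 and 9 to 10 Mb with 1.21, all on chromosome 17.

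Windows of senescent shcontrol and control came last, and 84 of 131 windows had a ratio below 1. At 2-fold, 1 window was higher and 5 were lower (0.763% and 3.82%), against 3.65% higher and 1.89% lower over all autosomes. The median log2 ratio was -0.15, against 0.0035 on the other autosomes, and per covered kb it was 0.23, against 0.29 over all windows. Per covered kb of anchor, 0 windows were higher and 0 lower, so none of these calls held once the covered length was counted. Over all 1478 autosomal windows, 53 were higher and 1 lower under that scaling. The higher window was chromosome 17 at 13 to 14 Mb, which by general hg19 position holds HS3ST3A1, a heparan sulfate sulfotransferase named after the values were seen. Counted over shared-anchor PETs, as are the next values, it had 1564 CPM in senescent shcontrol and 729 in control, a ratio of 2.14 (1.90 to 2.42), with 145 kb of senescent and 112 kb of control anchors. The lowest was chromosome 19 at 6 to 7 Mb, with 105 and 389 CPM and a ratio of 0.269 (0.192 to 0.370), where the sets cover 46.5 and 100.3 kb. The other lower windows were chromosome 17 at 56 to 57 Mb (0.418), chromosome 22 at 18 to 19 Mb (0.448), and chromosome 17 at 0 to 1 Mb (0.458) and 78 to 79 Mb (0.463). Short of 2-fold, chromosome 17 at 63 to 64, 67 to 68, 66 to 67 and 14 to 15 Mb had 1.79, 1.70, 1.70 and 1.56.

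**Figure D4:**
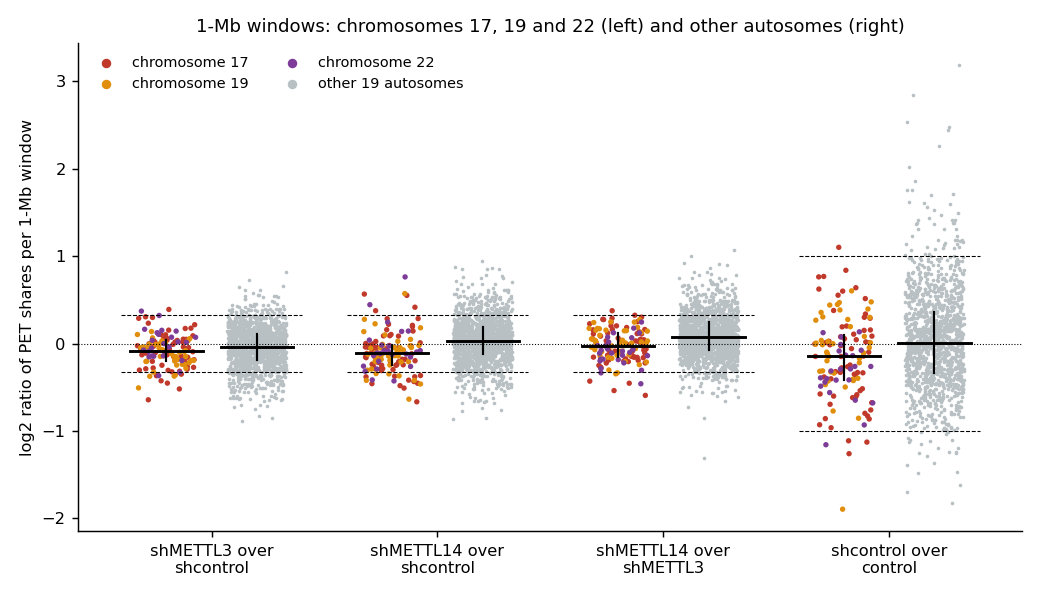
Log2 ratio of PET shares per 1-Mb window (y axis) in 4 comparisons (x axis), for chromosomes 17, 19 and 22 (coloured, left of each pair) and the other autosomes (grey, right). Thick bars are medians, thin lines run between the quartiles and dashed lines mark the fold used for a call. In shMETTL14 over senescent shcontrol the medians are -0.11 and 0.031.

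The windows of the landmark genes were read next, 23 of 25 having enough PETs in shMETTL14 over senescent shcontrol. Of these 1 was higher and 5 lower, with a median log2 ratio of -0.20, against -0.11 over the 136 windows of the 3 chromosomes and 0.017 over all 1745 windows, of which 10.2% were higher and 6.99% lower. Intervals lay below 1 in 14 of the 23 (60.9%), in 31.6% of the windows of the 3 chromosomes and in 15.6% of all windows. For shMETTL3 over senescent shcontrol 0 of 22 were higher and 1 lower (4.16% and 10.3% over all windows), and in shMETTL14 over shMETTL3 0 of 23 were higher and 3 lower (13.3% and 4.27%). In senescent shcontrol over control 0 of 22 were higher and 0 lower at 2-fold (3.65% and 1.89%). The landmark genes were chosen with earlier results known, so nothing particular to them is read from these counts. Per covered kb of shared anchors, 7 of the 22 ratios of senescent shcontrol over control went up by more than 1.5 times, and such values stand beside the ratios to control given below. The median of all autosomal windows under that scaling was 0.29 (log2). The windows of CCL2 and its neighbouring chemokine genes and of CEBPA, a differentiation factor, stayed under 200 PETs. CCL2 had 54.5 CPM in shMETTL3, 97.2 in shMETTL14, 96.0 in senescent shcontrol and 106 in control.

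Among transcription factor loci, the HOXB window had 1792 CPM in shMETTL3, 1609 in shMETTL14, 2212 in senescent shcontrol and 627 in control. Its ratio was 0.810 (0.746 to 0.879) in shMETTL3 and 0.728 (0.674 to 0.785) in shMETTL14 over senescent shcontrol. In senescent shcontrol over control it was 1.52 (1.32 to 1.74) over shared anchors and 3.53 over all anchors (1.56 per covered kb of shared anchors), where the anchor sets cover 125.0 and 129.0 kb in shared regions and 196.0 and 165.1 kb in all. The window of TBX2 and TBX4, T-box factors of limb and lung mesenchyme, had 1324, 1190, 1590 and 1773 CPM in the 4 libraries, with 0.832 in shMETTL3 and 0.748 in shMETTL14 over senescent shcontrol. Over control, senescent shcontrol had 1.02 (0.929 to 1.12) there over shared anchors and 1.19 per covered kb. JUNB had 529, 484, 752 and 526, so senescent shcontrol alone stood high. STAT3, which carries cytokine signals, had 1042, 949, 1092 and 1781, with 0.551 (0.498 to 0.610) in senescent shcontrol over control. Its shared anchors cover 182 kb in the senescent set and 291 kb in the control set, and per covered kb the ratio was 0.881. Windows of SOX9, KLF2, NOTCH3 and FOSB passed no fold in any comparison.

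Among secreted factors, the window of LIF and OSM had 2431 CPM in shMETTL3, 2085 in shMETTL14, 2782 in senescent shcontrol and 1611 in control. The ratio over senescent shcontrol was 0.874 (0.813 to 0.939) in shMETTL3 and 0.750 (0.701 to 0.802) in shMETTL14. Over control, senescent shcontrol had 1.05 (0.958 to 1.16) there over shared anchors, 1.73 over all and 1.395 per covered kb. SERPINF1, which encodes an inhibitor of vessel growth, had 1.06 in shMETTL3 and 0.776 in shMETTL14, where it passed as lower. The window of JUND and GDF15, a stress cytokine, had 1.10 and 0.865, and that of ICAM1, an adhesion receptor, had 1.02 and 0.810. Both passed as lower in shMETTL14 over shMETTL3, with 0.786 (0.717 to 0.863) and 0.793 (0.704 to 0.894). The window of PLAUR, the urokinase receptor, had 0.971 and 0.970, intervals that include 1, and 1.38 (1.23 to 1.55) in senescent shcontrol over control, or 1.53 per covered kb.

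Among matrix and cytoskeleton genes, the COL1A1 window, a collagen of the fibroblast matrix, had 0.941 (0.846 to 1.05) in shMETTL3 and 0.807 (0.730 to 0.893) in shMETTL14 over senescent shcontrol. The window of MYH9, a nonmuscle myosin, had 1.11 (1.02 to 1.21) and 0.910 (0.841 to 0.985). Against control, in senescent shcontrol, the COL1A1 and MYH9 windows had 0.626 and 0.624 over shared anchors but 1.08 and 1.16 over all anchors, so their direction depends on the anchors counted. Per covered kb of shared anchors they had 0.993 and 1.0, the sets covering 119 and 189 kb at COL1A1 and 166 and 266 kb at MYH9. The window of AXL, a receptor kinase, and TGFB1, a growth factor of fibrosis, had 0.586 over shared and 0.527 over all anchors. Shared anchors there cover 119 kb in the senescent set and 200.5 kb in the control set, and per covered kb the ratio was 0.986. The window of SOCS3 and TIMP2, an inhibitor of cytokine signals and one of metalloproteinases, had 0.824 (0.750 to 0.905) in shMETTL3 and 0.842 (0.774 to 0.917) in shMETTL14, while that of IGFBP4, which binds insulin-like growth factors, had 0.880 and 0.818. SPHK1, a lipid kinase, LGALS1, a galectin, and PDGFB, a growth factor, had 0.968, 0.999 and 1.05 in shMETTL3 and 0.865, 0.941 and 0.980 in shMETTL14.

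**Figure D5:**
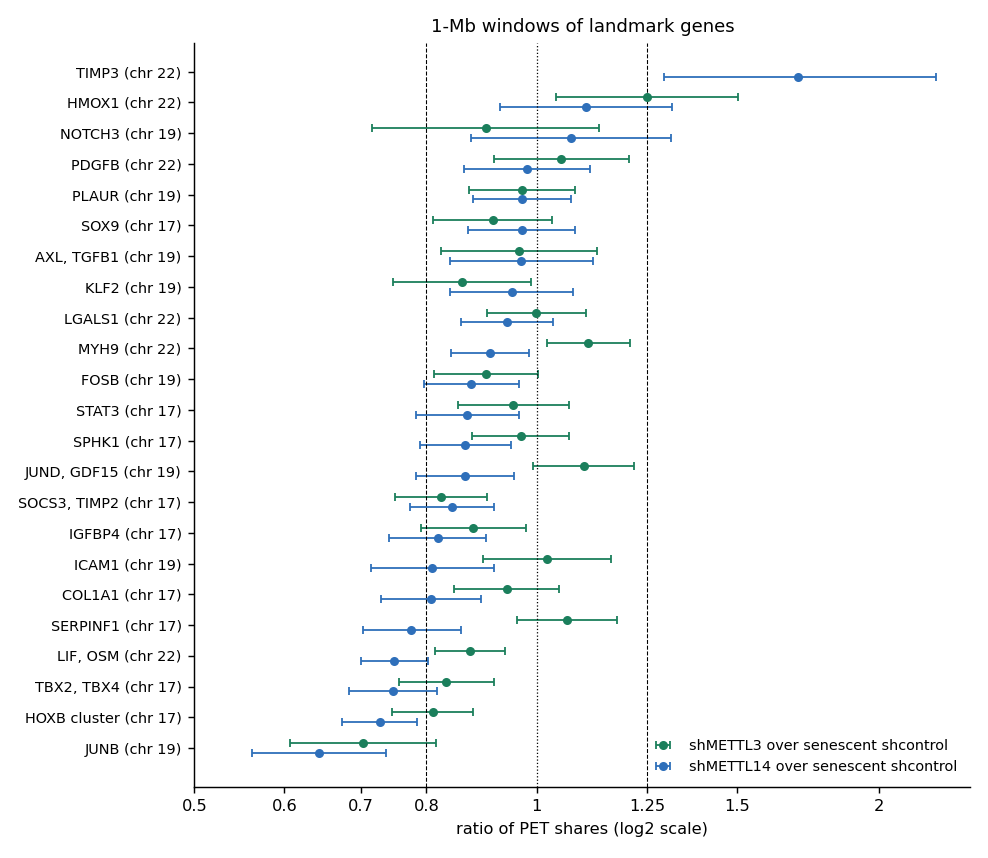
Ratio of PET shares (x axis, log2 scale) with 95% counting intervals for the windows of landmark genes (y axis), shMETTL3 (green) and shMETTL14 (blue) over senescent shcontrol. Dashed lines mark the ratios used for a call, and TIMP3 has no shMETTL3 value since its window held under 200 PETs. JUNB is lowest in both (0.703 and 0.643), and TIMP3 is highest in shMETTL14 (1.70).

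Single anchors with at least 50 PETs were compared at 2-fold. In shMETTL3 over senescent shcontrol 10 of 978 anchors of the 3 chromosomes were higher and 13 lower (1.02% and 1.33%), and over all autosomes 1.95% were higher and 1.46% lower. In shMETTL14 over senescent shcontrol 28 of 1252 were higher and 18 lower (2.24% and 1.44%), and over all autosomes 3.03% and 1.49%. In senescent shcontrol over control 82 of 1163 were higher and 224 lower (7.05% and 19.3%), against 11.7% and 17.1% over all autosomes. Chromosome 22 had the highest share of lower anchors of the 3, at 22.9%.

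Among anchors with at least 100 PETs, the lowest in shMETTL14 over senescent shcontrol was chr17:79314079-79321684, with 52.3 CPM in shMETTL14 and 152 in senescent shcontrol, a ratio of 0.344 (0.237 to 0.495). It was also among the 5 lowest in shMETTL3, with 81.7 CPM and a ratio of 0.537. Both ratios share the senescent shcontrol library. The highest was chr17:30078054-30084035, with 97.2 and 36.2 CPM and a ratio of 2.68 (1.64 to 4.596). The anchor chr22:33088290-33099295 in the TIMP3 window had 99.3 and 45.3, a ratio of 2.19 (1.40 to 3.56).

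In shMETTL3 over senescent shcontrol the lowest anchor was chr19:1092493-1106785, with 136 CPM in shMETTL3 and 263 in senescent shcontrol, a ratio of 0.519 (0.392 to 0.682). The anchor chr19:12827391-12836000 in the JUNB window had 83.3 and 158, a ratio of 0.529 (0.368 to 0.754). The highest was chr22:36812007-36817922 in the MYH9 window, with 183 and 99.6 CPM and a ratio of 1.83 (1.32 to 2.58). That anchor had 105 in shMETTL14.

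Anchors at the extremes of senescent shcontrol over control often differed in width between the sets. The lowest, chr19:6053743-6079332, had 12.7 CPM in senescent shcontrol and 122 in control over all anchors, and is covered over 4.75 kb in the senescent set and 25.6 kb in the control set. Its ratio over shared anchors was 0.0848 (0.0304 to 0.191). The highest, chr19:42622315-42629026, had 179 and 28.0 CPM and a ratio of 4.52 (2.92 to 7.19), covered over 6.71 and 2.62 kb. By contrast chr17:66282138-66291528 was covered over 9.39 and 7.49 kb and had 310 and 52.1 CPM, a ratio of 4.16 (2.997 to 5.87). Per covered kb of anchor, these log2 ratios were -1.13 where they had been -3.56, 0.82 where they had been 2.18 and 1.73 where they had been 2.06. Of the other 4 lowest anchors, chr17:48340237-48358628 had 0.011 and chr17:57884531-57895678 had -0.11 per covered kb, against -3.33 and -2.87 before.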

How the data were processed

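Each library is one H3K27ac HiChIP sample. The submitters' processing notes name HiC-Pro 3.1.0 and hg19. Which tool called interactions was not given in the sources used here. The deposited files have 8 columns and no header. Column 7 was read as the deposited raw count of PETs and column 8 as the authors' q-value, a reading taken from its values between 0 and 1 since the column is unnamed. Files list spans from 5000 bp to just under 2 Mb, so longer contacts were not analysed here. PCR duplicates are not marked, and intervals cover counting error only.

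From these counts, shares were computed with exact Clopper-Pearson intervals and ratios of shares with exact conditional binomial intervals (95%). A PET was counted once in each window or merged anchor that holds one of its ends, and a window is placed by the midpoint of the merged anchor. Overlapping anchors of both sets were merged into 79742 regions, 38038 of which hold both. PETs were drawn without replacement to 552029 in each library (seed 1), each interaction keeping its deposited q-value of full depth. The rule for windows was at least 200 PETs over both libraries, with 2-fold for senescent shcontrol over control and 25% higher or at most 0.8 times as high among senescent libraries. Named windows were the 5 highest and the 5 lowest of each comparison, and named anchors came from the 5 highest and the 5 lowest with at least 100 PETs. Named interactions were the 3 with most PETs at 20 kb or more in each library. Chromosomes, landmark genes and rules were chosen with earlier results of these data known. Ratios of landmark windows over all anchors and per covered kb were added after the data were seen. Python 3.11.15, numpy 2.4.6, pandas 2.3.3, scipy 1.17.1 and matplotlib 3.10.9 were used.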

Additional observations from a re-analysis of the deposited data

How the results depend on the processing

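No paired analysis was possible because each group is 1 library. Of the alternative values computed, 81 stayed within their counting interval (counts within 1.5 times), 77 moved and 2 reversed, and the cause was not tested. The share ratio of senescent shcontrol over control was 0.8752 over interactions with column 8 at most 0.01, 0.9233 over shared anchors, and 0.8974, 0.8935 and 0.932 without chromosome 17, 19 or 22. That of shMETTL3 over senescent shcontrol was 0.9294 for at least 2 PETs, 0.9075 for column 8 and 0.9365 for spans of 20 kb or more. That of shMETTL14 over senescent shcontrol was 0.8836 for at least 2 PETs, 0.8411 for column 8, 0.9134 over shared anchors and 0.9149 without chromosome 17, and that of shMETTL14 over shMETTL3 was 0.9268 for column 8 and 0.9323 without chromosome 19. Every share ratio stayed below 1 under the alternatives run. The ratio of long spans in senescent shcontrol over control reversed to 1.007 for spans of 20 kb or more, and was 0.9864 without chromosome 17 and 0.9496 without chromosome 19. In shMETTL3 over senescent shcontrol it was 0.811 for at least 2 PETs at equal depth and 0.939 for spans of 20 kb or more, and in shMETTL14 over senescent shcontrol 0.8782 for at least 2 PETs at equal depth. Called loops in senescent shcontrol over control had 0.7784 at 6 PETs, 0.9165 at full depth and 0.6448 for column 8 at most 0.001. At full depth they reversed to 0.8464 in shMETTL14 over senescent shcontrol and were 0.8696 in shMETTL14 over shMETTL3. For windows of senescent shcontrol over control, 500 PETs gave 3 lower, interactions of at least 2 PETs gave 2 higher and 14 lower, shifted windows gave 3 lower, and the count per covered kb gave 0 higher and 0 lower. In shMETTL3 over senescent shcontrol, 100 PETs gave 4 higher, 500 PETs gave 0 higher and 7 lower, interactions of at least 2 PETs gave 8 higher, and shares within the 3 chromosomes gave 5 higher and 5 lower. In shMETTL14 over senescent shcontrol, 500 PETs gave 2 higher and shares within the 3 chromosomes gave 16 higher and 4 lower. In shMETTL14 over shMETTL3, higher windows numbered 5 at 100 PETs, 13 for interactions of at least 2 PETs, 8 for shifted windows and 9 within the 3 chromosomes. Depth limited the windows of CCL2 and CEBPA, which stayed under 200 PETs, and TIMP3, compared in shMETTL14 alone.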
